A study of Mus musculus with 3 samples.

Results

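Interferon-responding B cells of the mouse mesenteric lymph node, the node that drains the intestine, were examined in droplet single-cell RNA sequencing of 3 libraries. The groups were mice fed LysoPS-OVA (1 µg OVA in the sample title), mice fed free OVA (1 µg) and mice fed 5 mM citrate buffer, whose sample is titled an untreated control. Feeding was oral and lasted 4 weeks, and each library held the pooled nodes of 6 animals, digested with enzymes, cleared of dead cells and loaded at 10000 cells. Each group is therefore 1 library, and the labels give no strain, age or sex for any of them. The labels call the cells intestinal, while the tissue is given as mesenteric lymph node.

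A barcode counted as a B cell when it held at least 300 genes, at most 10% mitochondrial UMIs (unique molecular identifiers, 1 per captured transcript), at least 3 UMIs of Cd79a, Cd79b and Ms4a1 with at least 2 of these 3 seen, and 0 UMIs of Cd3d, Cd3e and Cd3g. It counted as interferon-responding when at least 3 of the 7 genes Ifit1, Ifit2, Ifit3, Ifit3b, Usp18, Oasl1 and Isg15 had a UMI. The members were thus chosen by the measured UMIs of these 13 genes. This gate took 539 of 14817 B barcodes, out of 67002 that passed the gene and mitochondrial limits and 78460 deposited. There were 220 of 5207 B barcodes in LysoPS-OVA, 221 of 4969 in free OVA and 98 of 4641 in citrate buffer. The comparison set is the 11051 B barcodes with none of the 7 genes, called negative here: 3811 in LysoPS-OVA, 3676 in free OVA and 3564 in citrate buffer.

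Type I interferons bind the receptor IFNAR1/IFNAR2, whose kinases JAK1 and TYK2 activate transcription factors including STAT2. With IRF9 these bind the interferon-stimulated response element (ISRE) and switch on a large set of genes, among them STAT2, IRF9 and IRF7 themselves. Ifit proteins bind viral RNA and block its translation, Isg15 is a ubiquitin-like protein that is conjugated to other proteins, Usp18 removes it and also dampens signalling at the receptor, and Oasl1 is a relative of the oligoadenylate synthetases.

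The ISRE was searched in promoter sequences (250 bases before to 50 after the gene start, RefSeq, GRCm38.p6) as GAAA, any 2 bases and GAAA on both strands. It was present in a promoter of 1079 of the 27025 genes with an entry (3.99%), some of which had several entries. Of the 7 gate genes 6 had a promoter entry, and 4 of these 6 held the element. The windows below show it for the gate genes that held it and for some of the higher genes described later that held it. They are not the strongest genes as such: Ifi44, Trim30c, Oasl2 and Cmpk2 had none in the 250 bases before the start. Windows are read along the gene's own strand, with every match to the element or its reverse complement in capitals. Matches can overlap.
Ifit1, chr19:34640784-34640833, plus strand: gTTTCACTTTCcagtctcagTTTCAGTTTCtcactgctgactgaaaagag
Ifit3, chr19:34583387-34583436, plus strand: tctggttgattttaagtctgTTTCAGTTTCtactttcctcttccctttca
Ifit3b, chr19:34607783-34607832, plus strand: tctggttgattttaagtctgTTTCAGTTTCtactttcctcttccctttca
Isg15, chr4:156200855-156200904, minus strand: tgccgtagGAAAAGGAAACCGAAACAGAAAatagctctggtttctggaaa
Rsad2, chr12:26456543-26456592, minus strand: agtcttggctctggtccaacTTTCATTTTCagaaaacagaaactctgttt
Oas3, chr5:120777705-120777754, minus strand: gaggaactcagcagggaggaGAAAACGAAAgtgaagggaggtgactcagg
Oas1a, chr5:120907526-120907575, minus strand: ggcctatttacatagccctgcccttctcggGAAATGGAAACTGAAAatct
Slfn5, chr11:82951927-82951976, plus strand: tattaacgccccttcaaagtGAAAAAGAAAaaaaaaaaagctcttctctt
Ifi206, chr1:173491329-173491378, minus strand: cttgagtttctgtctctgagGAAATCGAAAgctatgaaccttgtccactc
Ifi213, chr1:173599316-173599365, minus strand: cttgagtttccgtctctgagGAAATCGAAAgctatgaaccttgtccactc
The Ifit3 and Ifit3b windows are identical, and those of Ifi206 and Ifi213 are close copies. Reads of such pairs could be split between the copies, so their separate values are uncertain.

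The libraries held 84089686 UMIs in LysoPS-OVA, 81559237 in free OVA and 96616683 in citrate buffer. Responding barcodes were deeper than negative ones: their median UMI count was 5088 against 4286 in LysoPS-OVA, 6492 against 5017 in free OVA and 4616 against 3481 in citrate buffer. Barcodes low in Malat1, a nuclear noncoding RNA (under 0.5% of UMIs), or in ribosomal protein transcripts (under 10%) are called partial below; whether they are partial cells was not tested. The remainder, neither low in Malat1 nor in ribosomal transcripts, made up 95.5% of responding and 81.7% of negative barcodes in LysoPS-OVA, 94.6% and 68.0% in free OVA, and 82.7% and 67.3% in citrate buffer. Scrublet called 4.55% of responding and 4.25% of negative barcodes doublets in LysoPS-OVA, 7.69% and 5.11% in free OVA, and 11.2% and 12.0% in citrate buffer. Between 166 and 194 barcode sequences were shared by any 2 libraries, and none belonged to responding cells of both.

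The gate genes chose the members, so their values are a description with no test. Summed over responding barcodes and scaled to counts per 1000000 UMIs (CPM), the 7 genes together reached 1328 CPM in LysoPS-OVA, 1141 in free OVA and 1288 in citrate buffer. Over all B barcodes the same sum was 137, 128 and 104 CPM in LysoPS-OVA, free OVA and citrate buffer, and by construction it is 0 in negative barcodes. Usp18 was seen in 73.6% of responding barcodes in LysoPS-OVA, 72.4% in free OVA and 73.5% in citrate buffer, and Ifit3 in 65.5%, 71.0% and 67.3% in the same order of feedings. Cd79a, the signalling chain of the B cell receptor, stood at 1785, 1653 and 1718 CPM in responding barcodes of LysoPS-OVA, free OVA and citrate buffer, against 1853, 1567 and 1523 CPM in negative ones. Cd79a is part of the gate. IgD heavy chain transcripts (Ighd), which are not, were seen in 99.1%, 97.7% and 91.8% of responding barcodes and 92.7%, 83.8% and 83.9% of negative barcodes of those libraries. In negative barcodes matched for depth the shares were 94.5%, 93.3% and 86.6%.

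The 3-gene limit cuts a continuous range. The summed level of the listed antiviral effector genes, none of them in the gate, was 2553 CPM in LysoPS-OVA barcodes with 3 gate genes (99 barcodes), just inside, and 2268 CPM in those with 2, just outside. It was 2695 against 2264 CPM in free OVA and 2561 against 1889 CPM in citrate buffer. Barcodes with 0 gate genes stood at 1039, 1069 and 1182 CPM in LysoPS-OVA, free OVA and citrate buffer.

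**Figure D1:**
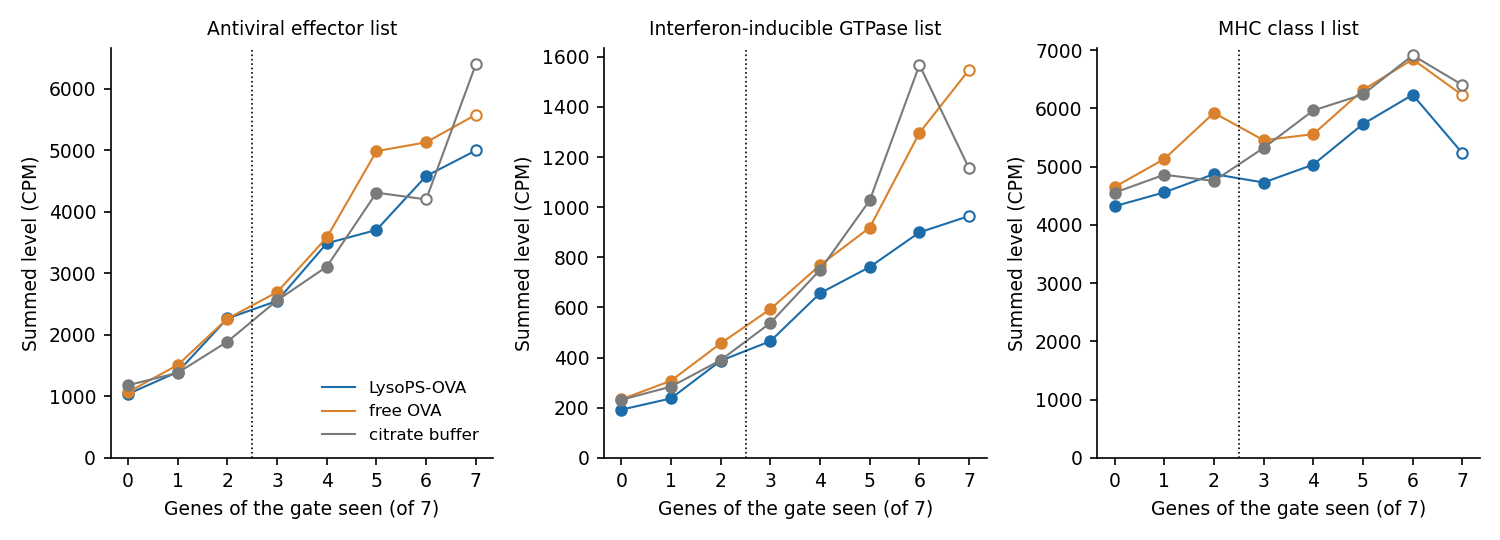
Summed CPM of gene lists outside the gate (vertical axes) against the number of gate genes seen in a barcode (horizontal axes), with 1 line per library and open points where fewer than 20 barcodes were summed. The antiviral sum is 2553 to 2695 CPM at 3 genes, against 1039 to 1182 CPM at 0 genes.

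All other genes were tested between responding and negative barcodes with UMIs summed per library and class, the 3 libraries serving as replicates of this within-library contrast (edgeR quasi-likelihood test, library as a block, Benjamini-Hochberg adjustment over all genes tested). Of 12070 genes tested, 445 were higher in responding barcodes (3.69%) and 113 were lower (0.936%) at an adjusted p below 0.05. Fold changes are log2 with a standard error worked back from the test statistic. The p-values measure how far the difference between classes varied over 3 libraries of pooled animals that also differ in feeding. The estimates of that spread were shared between genes.

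Direct antiviral effectors rose together. Of 22 genes listed, 20 were found by symbol, 19 were tested and 18 rose, with a median log2 change of 2.98 beside -0.01 for all genes tested; the same number passed under each of the 17 alternative settings tried. Apobec3, a cytidine deaminase that edits viral DNA, was the tested member that did not pass (log2 0.35, adjusted p = 0.215).

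Rsad2, or viperin, which makes a nucleotide that ends viral RNA chains, had the highest change of the 20 genes named by rank. The gene lies at chr12:26442746-26456452 (mm10, minus strand). Its level was 31.3 CPM in LysoPS-OVA, 24.2 in free OVA and 28.6 in citrate buffer in responding barcodes, against 0.280, 0.321 and 1.16 CPM in negative barcodes of those libraries. The log2 change was 5.78 ± 0.42 (adjusted p = 4.05e-13). A Rsad2 UMI was seen in 10.9%, 10.4% and 10.2% of responding barcodes in LysoPS-OVA, free OVA and citrate buffer, so most responding barcodes had none at this depth. Cmpk2, a nucleotide kinase whose gene lies beside Rsad2 on chromosome 12, was also higher, with 42.4, 47.8 and 36.2 CPM in responding barcodes against 4.37, 3.69 and 3.55 CPM in negative ones (log2 3.48 ± 0.23).

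Several oligoadenylate synthetases, which sense double-stranded RNA and activate RNase L, rose; Oas1g had 4 UMIs in responding barcodes and was not tested. Oas3 was at 68.5 CPM in LysoPS-OVA, 59.6 in free OVA and 22.9 in citrate buffer in responding barcodes, against 3.81, 3.15 and 4.86 CPM in negative ones (log2 3.82 ± 0.25). The citrate buffer value was the lowest of the responding 3, and still stood above every negative library. Oasl2 changed by 3.63 ± 0.17, Oas2 by 3.42 ± 0.21 and Oas1a by 2.98 ± 0.22 on the log2 scale. Eif2ak2 (PKR), the kinase that stops translation on binding double-stranded RNA, was at 120 to 160 CPM in the 3 responding profiles and at 13.6 to 18.9 CPM in the negative ones (log2 3.18 ± 0.12).

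Ifitm3, a membrane protein that hinders viral entry, reached 102, 92.6 and 78.1 CPM in responding barcodes of LysoPS-OVA, free OVA and citrate buffer, against 6.16, 10.6 and 18.0 CPM in negative ones (log2 3.20 ± 0.19). Its negative level was therefore highest in citrate buffer, where its responding level was lowest. Bst2 (tetherin), which holds budding virus at the membrane, was at 154 to 186 CPM in responding and 34.0 to 38.2 CPM in negative profiles (log2 2.30 ± 0.09). Ifi44 changed by 3.86 ± 0.28 and Rtp4 by 3.52 ± 0.11; Rtp4 overlaps other annotated genes, as do Slfn5, Unc5c and Ccna2, and whether counting used strand was not given in the sources used here.

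**Figure D2:**
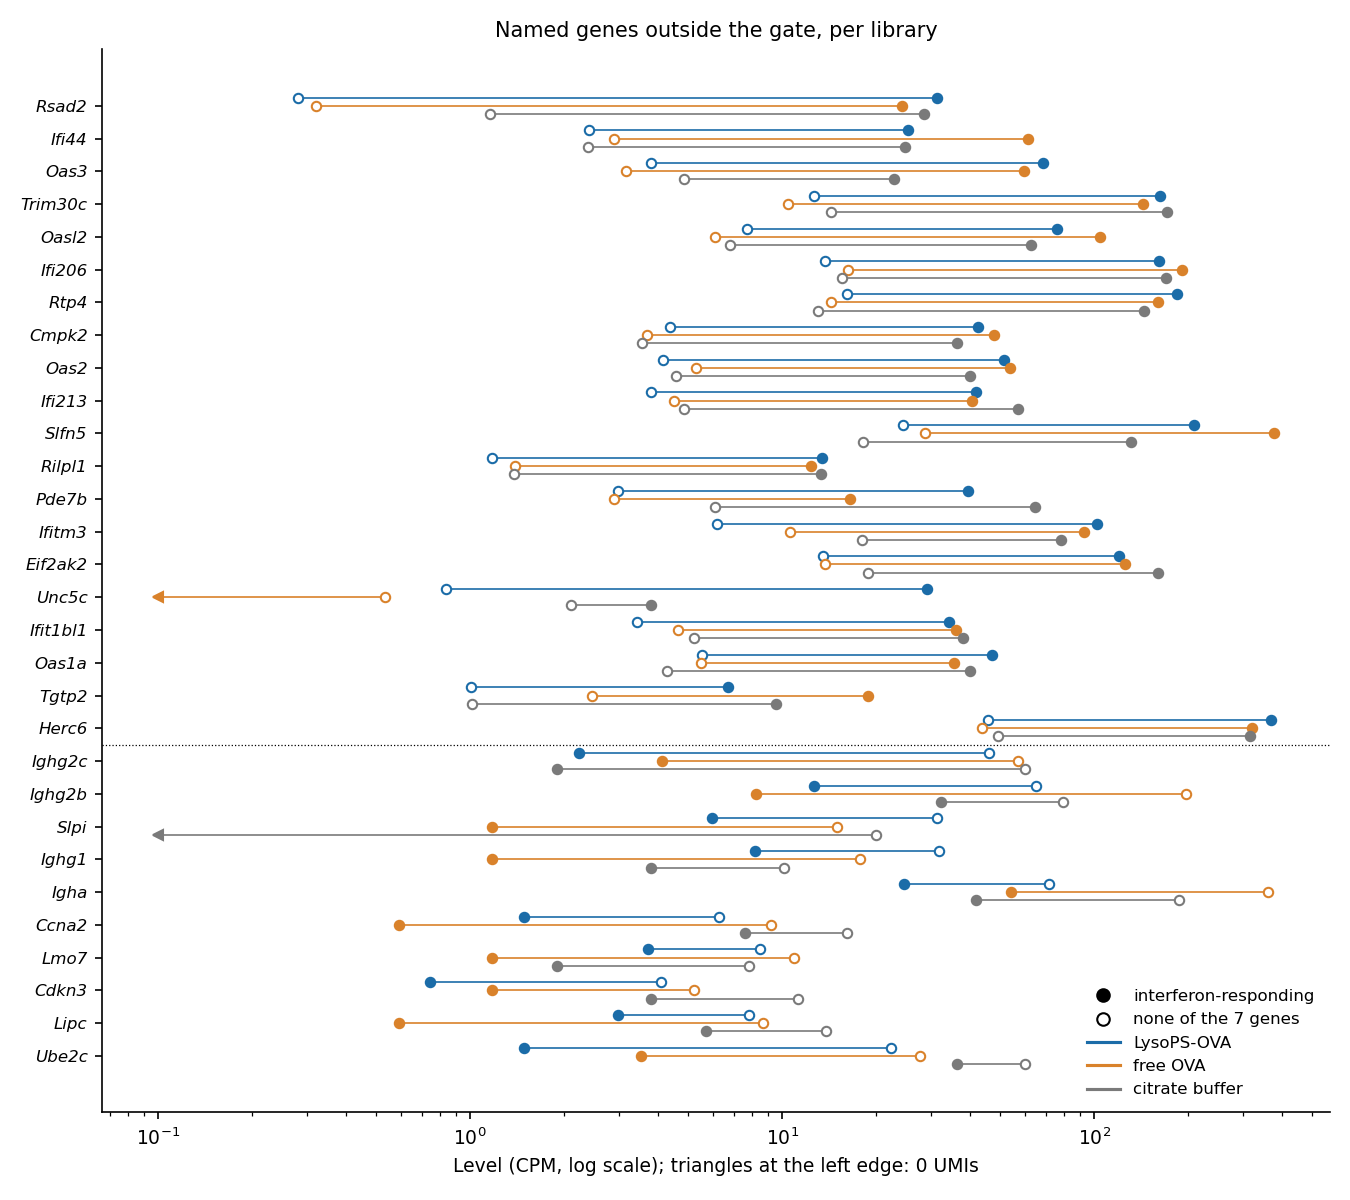
Level in CPM on a log axis of each gene named by rank, higher and lower. Filled points are responding and open points negative barcodes, with 1 point of each kind per library. For Rsad2 the responding points lie at 24.2 to 31.3 CPM and the negative points at 0.280 to 1.16 CPM.

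The ISG15 conjugation and ubiquitin ligase list was higher in all 9 of its tested members (median log2 1.63). Herc6, the main ISG15 ligase of the mouse, was at 369, 319 and 314 CPM in responding barcodes of LysoPS-OVA, free OVA and citrate buffer, against 45.6, 43.7 and 49.3 CPM in negative ones (log2 2.90 ± 0.08). The activating enzyme Uba7 rose by 0.54 ± 0.16 (adjusted p = 0.0479, close to the limit) and the conjugating enzyme Ube2l6 by 1.25 ± 0.27. Rnf213, a large ubiquitin ligase, rose by 2.57 ± 0.08 and Trim30a by 2.38 ± 0.06. Trim30c had 162, 143 and 171 CPM in responding against 12.6, 10.4 and 14.4 CPM in negative barcodes of the 3 libraries; it, Trim30a and Trim30b are close copies whose reads could be split.

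All 5 poly-ADP-ribose polymerases listed were tested and rose (median 2.0), with Parp14 at 335 to 383 CPM in responding and 71.3 to 73.7 CPM in negative profiles (log2 2.31 ± 0.07). All 13 genes of the Schlafen, Phf11 and Ifi200 families that were listed also rose (median 2.02). Slfn5 was at 208.5 CPM in LysoPS-OVA, 376 in free OVA and 131 in citrate buffer in responding barcodes, against 24.4, 28.6 and 18.1 CPM in negative ones (log2 3.38 ± 0.10). The DNA-binding Ifi200 proteins Ifi206 and Ifi213 changed by 3.56 and 3.40.

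Interferon-inducible GTPases, which attack the vacuoles of intracellular microbes, were higher in 14 of 16 tested members (median 1.94). Ifi47 was at 124, 116 and 116 CPM in responding barcodes of LysoPS-OVA, free OVA and citrate buffer, against 19.0, 18.9 and 18.7 CPM in negative ones (log2 2.68 ± 0.11). Irgm1 rose by 2.31 ± 0.11, Igtp by 2.31 ± 0.17 and Gbp7 by 1.90 ± 0.13. Gbp2 (log2 0.65, adjusted p = 0.0643) and Gbp2b (log2 -0.70, adjusted p = 0.796) did not pass.

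Receptors that sense viral nucleic acid rose in 8 of 12 tested members (median 1.69). Tlr7, the endosomal sensor of single-stranded RNA, was at 68.5, 69.0 and 126 CPM in responding barcodes of LysoPS-OVA, free OVA and citrate buffer, against 20.8, 17.8 and 24.7 CPM in negative ones (log2 2.01 ± 0.13). Zbp1, a sensor of left-handed nucleic acid, rose by 2.82 ± 0.13, Ifih1 (MDA5) by 2.68 ± 0.23, Tlr3 by 2.56 ± 0.35, Dhx58 (LGP2) by 2.46 ± 0.23, Ddx58 (RIG-I) by 1.87 ± 0.08 and Cgas by 1.52 ± 0.37. The adaptors Mavs (log2 -0.24, adjusted p = 0.750) and Myd88 (log2 0.53, adjusted p = 0.400) did not pass.

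Among the 11 tested members of the receptor and signalling list the median log2 change was 0.03. Stat2 was at 91.6, 118 and 131 CPM in responding barcodes of LysoPS-OVA, free OVA and citrate buffer, against 39.7, 38.4 and 35.5 CPM in negative ones, and rose (log2 1.56 ± 0.11). Irf9 was at 90.1, 108 and 85.7 CPM in responding barcodes of those libraries, against 47.8, 44.3 and 43.0 CPM in negative ones, and rose as well (log2 1.12 ± 0.11). The receptor chains Ifnar1 (log2 -0.31 ± 0.16, adjusted p = 0.428) and Ifnar2 (log2 -0.13 ± 0.11, adjusted p = 0.744) and the kinases Jak1 (log2 0.01 ± 0.06) and Tyk2 (log2 0.08 ± 0.19) did not pass.

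Among 7 interferon regulatory factors tested, 2 rose. Irf7, the amplifier of interferon gene transcription, was at 165, 127 and 126 CPM in responding barcodes of LysoPS-OVA, free OVA and citrate buffer, against 18.4, 19.3 and 20.4 CPM in negative ones (log2 2.89 ± 0.12). Irf1 rose by 0.67 ± 0.09. Of 8 negative feedback genes tested, Socs1, an inhibitor of JAK kinases, rose by 2.31 ± 0.24 and Nmi by 0.80 ± 0.11.

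Interferon transcripts themselves were scarcely seen. Of 12 interferon ligand genes listed, 1 passed the low-count filter, Ifnk, at 2.98, 1.18 and 1.90 CPM in responding barcodes of LysoPS-OVA, free OVA and citrate buffer and 1.46, 1.55 and 1.52 CPM in negative ones (log2 0.41 ± 0.71, adjusted p = 0.894). Ifnb1 and the listed Ifna genes had 0 UMIs in all 539 responding barcodes. The upper 95% limit on the share of barcodes with an Ifnb1 UMI was 1.66% in LysoPS-OVA, 1.66% in free OVA and 3.69% in citrate buffer.

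**Figure D3:**
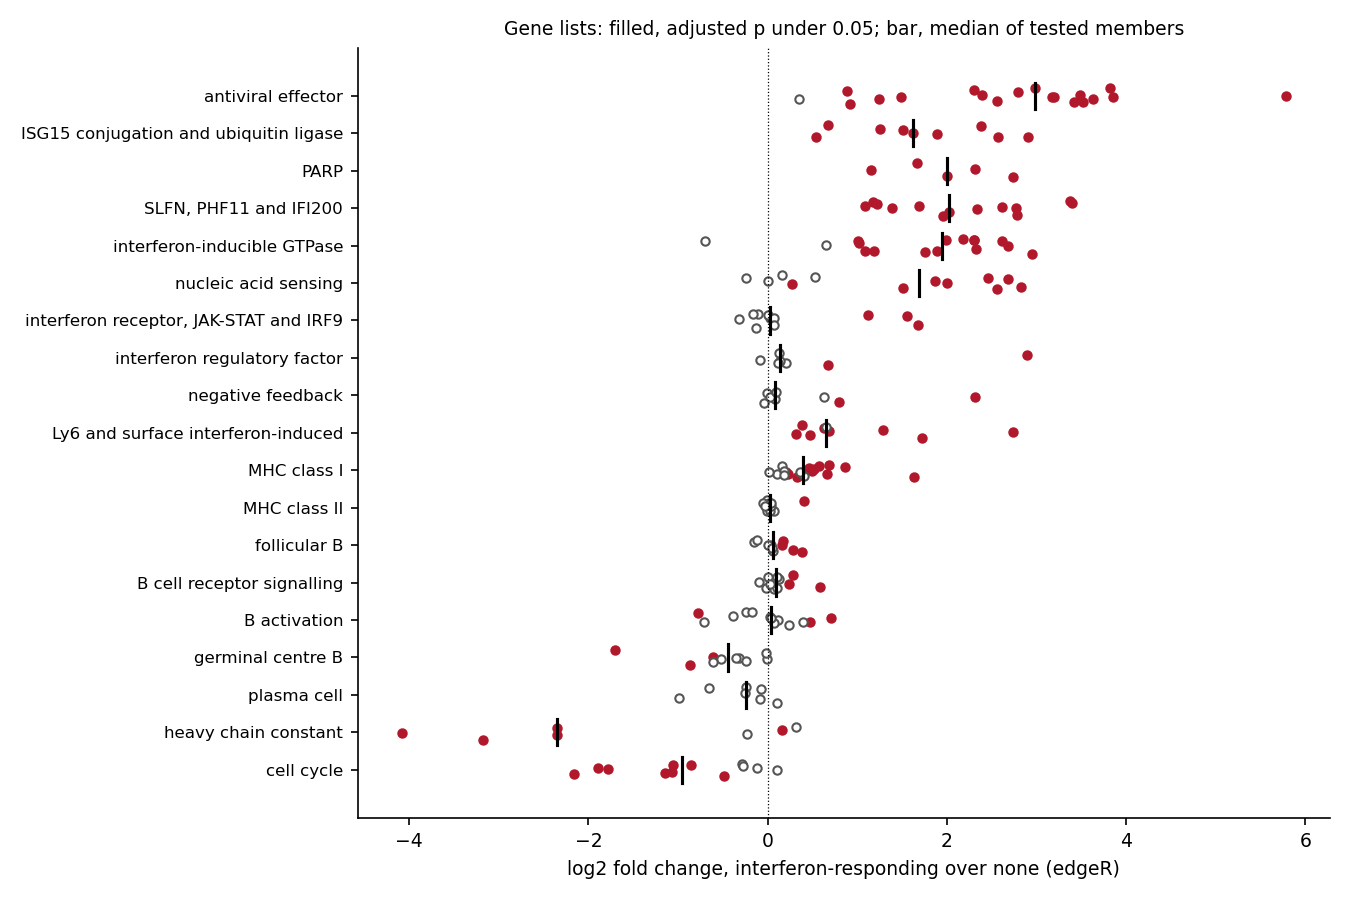
Log2 change of responding over negative barcodes for every tested member of each list (points, filled where adjusted p was below 0.05) and the list median (bar). The antiviral median lies at 2.98 and the receptor and signalling median at 0.03.

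Antigen presentation by MHC class I rose by smaller steps, with 12 of 19 tested members higher and a median of 0.40. Nlrc5, the transactivator of class I genes, was at 141, 180 and 177 CPM in responding barcodes of LysoPS-OVA, free OVA and citrate buffer, against 48.0, 55.6 and 61.4 CPM in negative ones (log2 1.63 ± 0.08). The peptide transporter Tap1 rose by 0.66 ± 0.10, the editor Tapbp by 0.86 ± 0.08, the light chain B2m by 0.33 ± 0.04 and the heavy chain H2-K1 by 0.23 ± 0.04. H2-D1 did not pass (log2 0.10 ± 0.04, adjusted p = 0.201). In MHC class II, 1 of 10 tested members rose, the protease Ctss (log2 0.41 ± 0.05), with a median of 0.03; the class II transactivator Ciita had 0.04 ± 0.06 (adjusted p = 0.876). Cxcl10, a chemokine induced by both interferon types, had 2.98, 3.54 and 3.81 CPM in responding and 0.896, 0.481 and 0.798 CPM in negative barcodes and did not pass (adjusted p = 0.0576).

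Of 9 tested surface and Ly6 genes, 8 rose (median 0.65), among them Lgals3bp (2.74 ± 0.24), Lgals9 (1.72 ± 0.09), Ly6a (1.29 ± 0.06), the checkpoint ligand Cd274 (0.69 ± 0.10) and Cd47 (0.63 ± 0.05). The costimulator Cd86 rose by 0.71 ± 0.08, with 238, 178 and 149 CPM in responding barcodes of LysoPS-OVA, free OVA and citrate buffer against 155, 104 and 94.4 CPM in negative ones. Cd69, which holds lymphocytes in the node, rose by 0.47 ± 0.07. Of the 13 B activation genes tested these 2 rose and Egr1 fell (-0.78 ± 0.19). Among 12 B cell receptor signalling genes, Pik3ap1 (0.59 ± 0.06), Blnk (0.29 ± 0.05) and Lyn (0.24 ± 0.04) rose, and those that rose among 10 follicular genes included Cxcr5 (0.29 ± 0.08), Bach2 (0.17 ± 0.03) and Ighd (0.16 ± 0.04). With partial barcodes left out of both classes, Bach2 still passed, Ighd and Cxcr5 did not, and Fcer2a (-0.26 ± 0.06) and Klf2 (-0.24 ± 0.06) passed as lower.

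Haemoglobin genes were among the lower genes (Hba-a1 -5.62 ± 0.16) and, with variable and light chain immunoglobulin genes, were left out of the ranking. Of the genes ranked, antibody transcripts of switched classes were prominent. Ighg2c was at 2.23, 4.13 and 1.90 CPM in responding barcodes of LysoPS-OVA, free OVA and citrate buffer, against 46.0, 56.9 and 60.1 CPM in negative ones (log2 -4.08 ± 0.26). In each library 1 negative barcode held most of it: 90.5% of the Ighg2c UMIs in LysoPS-OVA, 88.8% in free OVA and 66.5% in citrate buffer. Without partial barcodes Ighg2c no longer passed (log2 -0.68, adjusted p = 0.666), while Igha (-1.06), Ighg1 (-1.38) and Ighg2b (-2.34) did. In the full set Ighg2b changed by -3.17 ± 0.23, Ighg1 by -2.35 ± 0.32 and Igha by -2.35 ± 0.13; Slpi, a secreted protease inhibitor, changed by -2.94. With at least 2 gate genes as the limit, Ighg2b and Slpi had log2 values of 0.32 and 0.59, above 0. None of the 10 lower genes named by rank stayed called under every alternative in which it was tested. Counted per barcode, with each barcode given its leading heavy chain, a switched class led in 3 of 219 responding barcodes in LysoPS-OVA (1.37%, 95% interval 0.283 to 3.95), 3 of 220 in free OVA (1.36%, 0.282 to 3.93) and 1 of 98 in citrate buffer (1.02%, 0.0258 to 5.55). In negative barcodes the shares were 3.64% (3.06 to 4.28), 6.01% (5.24 to 6.84) and 4.18% (3.54 to 4.90) in those libraries. The intervals of the 2 classes overlap in LysoPS-OVA and citrate buffer and do not in free OVA.

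Cell cycle genes gave calls that turned with the barcodes included. Of 12 tested, 8 were lower and 0 higher (median -0.96), among them Ccna2 (-2.16 ± 0.46), Birc5 (-1.90 ± 0.27) and Top2a (-0.49 ± 0.14). Without partial barcodes 0 were lower and 2 higher (median 0.10): Mki67 at 1.16 ± 0.23 and Top2a at 0.62 ± 0.17. Top2a therefore passed in opposite directions. In the depth-matched set without partial barcodes, 0 of 6 tested passed either way. Most of the Mki67 and Top2a UMIs of responding barcodes lay in 1 barcode in LysoPS-OVA (23 of 36 and 28 of 41) and in free OVA (31 of 40 and 38 of 49). Of germinal centre genes, Gcsam (-1.71 ± 0.31), Rgs13 (-0.86 ± 0.21) and Mef2b (-0.61 ± 0.17) were lower of 10 tested. None passed without partial barcodes or without the free OVA library, and 2 were lower in the depth-matched set without partial barcodes. The count of lower members was 7 against the depth-matched set with partial barcodes kept and 8 with at least 2 gate genes. It was 1 with at least 4 gate genes and 0 with no library block. Of 7 tested plasma cell genes and 6 tested memory B genes, 0 passed in either direction.

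Markers of other cells were present at different levels. Summed T cell markers stood at 133, 83.2 and 280 CPM in responding barcodes of LysoPS-OVA, free OVA and citrate buffer, against 151, 102 and 315 CPM in negative ones, and 0 of 9 tested passed. Trbc2, a T cell receptor gene that B cells should lack, had a UMI in 15.5%, 8.14% and 32.7% of responding and 12.8%, 8.0% and 26.0% of negative barcodes of those libraries; where these UMIs came from was not tested. Of the plasmacytoid dendritic cell list, 3 of 6 tested members rose (Bst2, Tcf4 and Ly6d, all of which B cells can express), with a sum of 2163, 2006 and 1777 CPM in responding against 1782, 1455 and 1404 CPM in negative barcodes. The 4 defining markers of these cells, the main interferon producers, summed to 2.23, 11.2 and 17.1 CPM in responding and 11.9, 6.20 and 16.5 CPM in negative barcodes, with Siglech at 0 UMIs in LysoPS-OVA. Dendritic cell defining markers summed to 58.8, 61.9 and 62.9 CPM in responding and 34.3, 59.8 and 84.7 CPM in negative barcodes, and monocyte and macrophage markers to 29.8, 23 and 59.0 CPM against 24.7, 48.0 and 70.8 CPM. No tested member of the 4 defining plasmacytoid, the defining dendritic or the monocyte and macrophage markers passed. Of 3 tested stromal and endothelial genes Pecam1 rose (0.21 ± 0.06), and that list summed to 488, 525 and 461 CPM in responding against 449, 421 and 440 CPM in negative barcodes. Erythroid and platelet genes fell in 4 of 4 tested, at 11.9, 42.5 and 30.5 CPM in responding against 87.7, 1525 and 633 CPM in negative barcodes. The part of these transcripts in the lower calls was not tested.

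Some higher genes lay in arrays of related genes (mm10); no share for all tested genes was computed, so the counts are a description. The largest group, with at most 100000 bases between neighbours, was the Ifi200 array at chr1:173468485-173942672 with 10 genes. Others were the immunity-related GTPase array at chr11:48861968-49135387 with 8, the Trim30 array at chr7:104244457-104465193 with 6, the Schlafen array at chr11:82942341-83122670 with 6, the Ms4a array at chr19:11404770-11531256 with 6 and the Oas array at chr5:120730333-120907521 with 4. Neighbouring copies can share reads, so these counts are not of independent genes.

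The ISRE letters were in the promoters of 70 of 344 higher genes with an entry (20.3%) and of 2 of 88 lower genes (2.27%), beside 3.92% of all tested genes. Among genes higher by 2 or more on the log2 scale they were in 28 of 61 (45.9%), and among those higher by less in 42 of 283 (14.8%). Of the 20 genes named by rank, 18 had an entry and 10 held the letters, including Rsad2, Oas3, Oas1a, Slfn5, Ifi206 and Ifi213 shown above. The STAT dimer site, searched as TTCNNNGAA, was in 12.5% of higher, 2.27% of lower and 8.30% of tested genes' promoters. A match is a run of letters only, and promoters of copied genes are not independent.

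Unc5c and Pde7b, among the ranked genes, each had most of their LysoPS-OVA UMIs in 1 barcode. Unc5c, a netrin receptor (log2 3.16 ± 0.67), had all 39 of its LysoPS-OVA UMIs in 1 responding barcode of 35154 UMIs that Scrublet called a doublet, and its log2 change was 0.03 ± 1.37 without the LysoPS-OVA library. Pde7b, a cyclic AMP phosphodiesterase, was at 39.5, 16.5 and 64.8 CPM in responding barcodes of LysoPS-OVA, free OVA and citrate buffer against 2.97, 2.88 and 6.09 CPM in negative ones (log2 3.28). That same barcode held 39 of its 53 LysoPS-OVA UMIs, and without it the level was 10.7 CPM. Of the 20 higher genes named by rank, 19 stayed called under every alternative in which they were tested, Pde7b among them; Unc5c was tested in 10 of the 17 and missed the limit in 3.

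Whether the fraction of responding B cells differed with feeding was examined after each B barcode was thinned to 2000 UMIs, since detection of 3 genes depends on depth. This left out 246 shallower barcodes in LysoPS-OVA, 644 in free OVA and 746 in citrate buffer. In LysoPS-OVA 82 of 4961 B barcodes were then responding, or 1.65% (exact binomial 95% interval 1.32 to 2.05). Free OVA had 65 of 4325, or 1.5% (1.16 to 1.91). Citrate buffer had 36 of 3895, or 0.924% (0.648 to 1.28). Without thinning they were 4.23%, 4.45% and 2.11%. The thinned ratio was 1.79 for LysoPS-OVA over citrate buffer (95% interval 1.21 to 2.64), 1.63 for free OVA over citrate buffer (1.08 to 2.44) and 1.10 for LysoPS-OVA over free OVA (0.796 to 1.52). These intervals cover counting error only, and with 1 library per feeding there is no test. The thinning was a single random draw, and the spread between draws was not measured. Subsets of barcodes and other depths were drawn anew.

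After thinning, both ratios over citrate buffer had intervals that included 1 once partial barcodes were left out. They also did with at least 4 gate genes or at 1000 UMIs. Without partial barcodes the thinned shares were 1.5% in LysoPS-OVA, 1.49% in free OVA and 1.17% in citrate buffer. The ratios were 1.28 (0.854 to 1.92) for LysoPS-OVA and 1.27 (0.834 to 1.94) for free OVA over citrate buffer. This subset was thinned with a new random draw, so draw and filter cannot be told apart in the shift. In LysoPS-OVA the thinned count went from 82 to 65, while 210 of 220 responding barcodes were not partial. Without thinning, and with partial barcodes left out, 210 of 4362 B barcodes were responding in LysoPS-OVA. Free OVA then had 209 of 3581 and citrate buffer 81 of 3216. The pools also differed in sex makeup: of negative barcodes with transcripts of a single sex, Y-linked ones marked 87.0% in LysoPS-OVA, 77.3% in free OVA and 58.5% in citrate buffer. Among responding barcodes these were 95.1% (90.2 to 98.0), 78.5% (71.2 to 84.6) and 35.1% (22.9 to 48.9). Within barcodes with Y-linked transcripts only, the ratio of LysoPS-OVA over citrate buffer was 2.77 (1.25 to 6.13, with 7 of 1378 barcodes in citrate buffer), and within those with Xist only it was 0.635 (0.214 to 1.89, with 4 of 427 barcodes in LysoPS-OVA). For free OVA over citrate buffer the ratios were 2.91 (1.30 to 6.54) and 0.941 (0.429 to 2.06). The strata were chosen after the data were seen, and in the pooled values sex makeup and feeding cannot be told apart.

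T barcodes passed the same 7-gene limit at 1.27% in LysoPS-OVA, 1.99% in free OVA and 1.08% in citrate buffer after thinning. Their ratio was 1.18 (0.760 to 1.82) for LysoPS-OVA over citrate buffer and 1.85 (1.18 to 2.91) for free OVA over citrate buffer. LysoPS-OVA over free OVA was 0.635 (0.414 to 0.974) in T barcodes, against 1.10 in B barcodes. Whether B and T ratios differ was not tested.

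**Figure D4:**
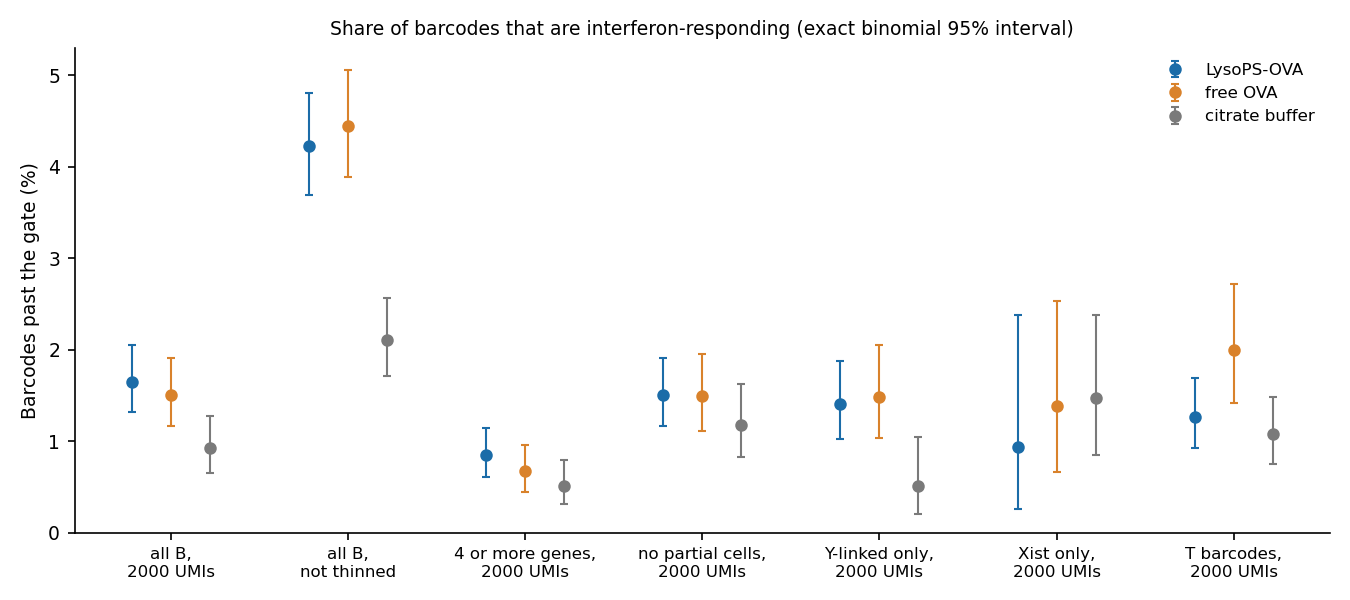
Percent of B barcodes that were responding in LysoPS-OVA, free OVA and citrate buffer, thinned to 2000 UMIs, with 95% exact binomial intervals, for all B barcodes and the subsets described, beside B barcodes with no thinning and T barcodes. All B barcodes give 1.65%, 1.5% and 0.924%, and without partial barcodes 1.5%, 1.49% and 1.17%.

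Levels within responding barcodes were then set side by side between libraries, with 95% intervals that cover counting error only. Outside the gate, the intervals for Rsad2, Rtp4 and Bst2 included 1 in all 3 comparisons. Those for Slfn5, Ifi44, Oasl2 and Irgm1 did not for free OVA over citrate buffer. For Irgm1 that fold was 2.12 in responding and 2.04 (1.74 to 2.39) in negative barcodes. In negative barcodes it was 1.21 (0.767 to 1.92) for Ifi44 and 0.893 (0.674 to 1.19) for Oasl2. The gate genes' levels are bound to the rule and are a description: Ifit1 was at 153 CPM in LysoPS-OVA against 113 CPM in free OVA (fold 1.35, 1.11 to 1.66), and Isg15 was at 202 CPM in free OVA against 284 CPM in citrate buffer (fold 0.711, 0.585 to 0.868). At a 2-fold limit, 29 of 3442 genes were higher (0.843%) and 16 lower (0.465%) in LysoPS-OVA against citrate buffer. Against free OVA, LysoPS-OVA had 8 of 3486 higher (0.229%) and 8 lower (0.229%). In free OVA against citrate buffer 20 of 3429 were higher (0.583%) and 26 lower (0.758%).

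Slfn5 stood out among interferon-induced genes. It was at 376 CPM in free OVA against 131 CPM in citrate buffer in responding barcodes (fold 2.86, 2.23 to 3.73), and at 28.6 against 18.1 CPM in negative ones (fold 1.58, 1.36 to 1.84). A Slfn5 UMI was seen in 54.1%, 72.9% and 42.9% of responding barcodes in LysoPS-OVA, free OVA and citrate buffer, and no barcode held more than 5.80% of its UMIs in a library. LysoPS-OVA lay between, at 208.5 CPM (fold 0.554 over free OVA, 0.480 to 0.638). Ifi44 was also highest in free OVA, at 61.4 CPM against 24.8 CPM in citrate buffer (fold 2.48, 1.39 to 4.81).

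Tlr7, which is X-linked, was at 68.5 CPM in LysoPS-OVA against 126 CPM in citrate buffer in responding barcodes (fold 0.545, 0.393 to 0.759), and at 20.8 against 24.7 CPM in negative ones (fold 0.840, 0.724 to 0.976). Socs1 was at 19.4 CPM in LysoPS-OVA against 49.5 CPM in citrate buffer (fold 0.391, 0.218 to 0.701). Their relation to the sex makeup given above was not tested.

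The other genes with the farthest ratios mostly shifted in negative barcodes too. Nr3c2, the mineralocorticoid receptor, had 78 UMIs in LysoPS-OVA and 147 in free OVA against 1 in citrate buffer, with folds of 30.5 (5.31 to 1220) and 45.5 (8.05 to 1811), and folds of 5.48 and 6.76 in negative barcodes. Fosb, an immediate early factor, had a fold of 9.81 (3.26 to 48.4) for free OVA over citrate buffer and 7.53 in negative barcodes. Ankrd33b had 8.01 (3.01 to 30.1) for LysoPS-OVA over citrate buffer and 2.70 in negative ones. Znrf3 and Dctn4 moved less in negative barcodes. Znrf3 had 0.316 for LysoPS-OVA over citrate buffer and 0.834 in negative ones. Dctn4 had 0.373 for LysoPS-OVA over free OVA and 0.902 in negative ones. The signalling kinase Prkcq was lower in LysoPS-OVA (fold 0.334, and 0.459 in negative barcodes) and in free OVA (fold 0.249) against citrate buffer, and Xist, the X-inactivation RNA, was at 0.259 in LysoPS-OVA over citrate buffer and 0.445 in negative barcodes. S100a4 went the other way between classes, at a fold of 3.73 (2.30 to 6.28) for LysoPS-OVA over free OVA in responding barcodes and 0.563 in negative ones; 8 LysoPS-OVA barcodes held its UMIs, and 1 of them 32.4%.

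Some of the farthest ratios came from 1 barcode. The LysoPS-OVA barcode of 35154 UMIs held 97 of 102 UMIs of Slc8a1, a sodium-calcium exchanger, and 81 of 82 of Dpp10; without it they were at 3.82 and 0.765 CPM. Jchain, the joining chain of secreted IgM and IgA, was at 27.6 CPM in LysoPS-OVA and 23.6 in free OVA against 899 in citrate buffer, where 1 responding barcode of 11388 UMIs held 450 of 472 Jchain UMIs and 837 of 1450 Ighm UMIs. Without that barcode citrate buffer stood at 42.8 CPM for Jchain.

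**Figure D5:**
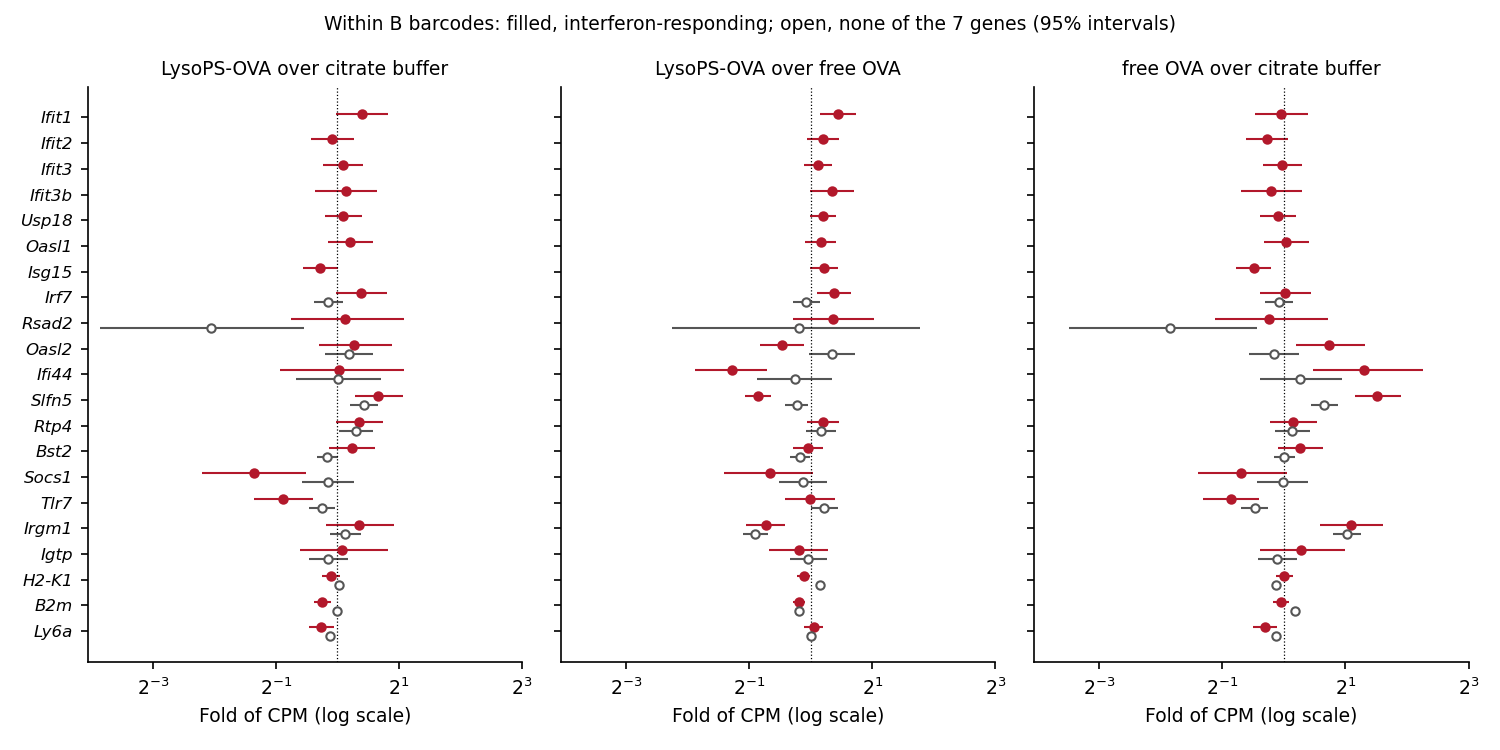
Fold between libraries within responding barcodes (log axis, bars are 95% conditional binomial intervals) beside the same fold in negative barcodes, for the gate genes (no negative value) and selected interferon-induced genes. Slfn5 in free OVA over citrate buffer lies at 2.86 in responding and 1.58 in negative barcodes.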

How the data were processed

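The authors deposited matrices of whole UMI counts, genes by barcodes, 1 matrix per library of 10x 3' v3.1 sequencing; Cell Ranger 7.2.0 and the build mm10 are named in the submitters' processing notes. Not given in the sources used here: annotation version, intron setting and strand handling. The members, gene lists and tests were chosen with earlier results of these data known.

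UMIs were added up over the barcodes of a class in each library and tested with edgeR 4.0.16 (R 4.3.3; TMM, filterByExpr, library block, quasi-likelihood test, Benjamini-Hochberg adjustment). The 13 gate genes were left out of testing, and some genes of the lists are not reported here. The 3 libraries are replicates of that contrast, and p-values measure how far the contrast varied between them. Between libraries, ratios used a pseudocount of 10 CPM for ranking, with exact binomial, conditional binomial and Katz 95% intervals that cover counting error only. Scrublet (scanpy 1.11.5) called doublets, which were kept except in an alternative. Gene positions came from GENCODE by gene ID for 32158 of 32285 features. The edgeR and thinning steps were checked on simulated data.

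Named genes were the 20 highest and 10 lowest log2 changes among called genes with at least 20 UMIs in the higher class, leaving out variable and light chain immunoglobulin, T cell receptor, ribosomal, mitochondrial, haemoglobin and unnamed genes. Between libraries they were the 4 highest and 4 lowest ratios among genes with at least 50 CPM and 30 UMIs in the higher library. List members could be named as well; Ifi44, Tlr7 and Socs1 were picked for the comparison between libraries after their values were seen. Alternatives changed the gate, comparison set, depth, filters, scaling, test (DESeq2 1.42.0) and libraries.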

Additional observations from a re-analysis of the deposited data

Results flagged for a closer look

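For 10 genes and 1 share, responding barcodes lay above negative ones in some libraries and below or level with them in others; these differences between libraries were not tested. The fold of responding over negative barcodes of Cxcl9 was 2.4 in LysoPS-OVA, 0.199 in free OVA and 0.673 in citrate buffer, with 8 of its 11 responding LysoPS-OVA UMIs in 1 barcode. Lyz2, a macrophage lysozyme, was at 1.97 in LysoPS-OVA, 0.279 in free OVA and 0.188 in citrate buffer, with 19 of 25 UMIs in 1 LysoPS-OVA barcode. Jchain was at 0.156 in LysoPS-OVA, 0.05 in free OVA and 5.97 in citrate buffer. Ighm was at 0.929 in LysoPS-OVA, 0.898 in free OVA and 2.23 in citrate buffer, and Mzb1, a plasma cell chaperone, at 0.875, 0.764 and 1.31 in the same libraries. In citrate buffer 1 responding barcode held 450 of 472 Jchain, 837 of 1450 Ighm and 70 of 213 Mzb1 UMIs.

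The class II genes differed by little: H2-Ab1 had folds of 0.947 in LysoPS-OVA, 1.06 in free OVA and 1.1 in citrate buffer. H2-Eb1 had 0.947, 1.0 and 1.07, and Cd74, the invariant chain, had 0.958, 1.01 and 1.05 in those libraries. Hsp90aa1, a chaperone, was at 1.13 in LysoPS-OVA, 0.977 in free OVA and 0.746 in citrate buffer, with 66 of 586 free OVA UMIs in 1 barcode. Xist was at 0.748 in LysoPS-OVA, 1.29 in free OVA and 1.29 in citrate buffer. The share of responding barcodes with Y-linked transcripts, among those with transcripts of a single sex, was 95.1% in LysoPS-OVA, 78.5% in free OVA and 35.1% in citrate buffer, against 87.0%, 77.3% and 58.5% of negative barcodes in those libraries.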

How the results depend on the processing

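The count of higher genes ranged from 321 (DESeq2) to 547 (without the top barcode of each gene) over the 17 alternatives except for the fit with no library block, which gave 241 higher and 6 lower; leaving out 1 library gave 372 to 431 higher and 82 to 113 lower. Lower genes numbered 217 against a depth-matched comparison set, 56 with that set and no partial barcodes, 282 with at least 2 gate genes, 195 without the top barcode of each gene, 257 with no low count filter and 33 with DESeq2. With at least 2 gate genes Ighg2b was at 0.32 and Slpi at 0.59 on the log2 scale, above 0. No paired analysis was possible between feedings because each had 1 library; the contrast of responding with negative barcodes is itself paired within library, and the fit with no library block is given above.

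The responding share in LysoPS-OVA was 4.23% with no thinning, 0.655% at 1000 UMIs, 2.44% at 3000, 4.27% with at least 2 gate genes, 0.847% with at least 4 and 0.937% among Xist-only barcodes. In free OVA it was 4.45% with no thinning, 0.541% at 1000 UMIs, 2.37% at 3000, 3.21% with at least 2 genes and 0.671% with at least 4. In citrate buffer it was 2.11% with no thinning, 0.391% at 1000 UMIs, 2.18% with at least 2 genes, 0.513% with at least 4, 0.508% among Y-linked-only and 1.47% among Xist-only barcodes. The ratio over citrate buffer among Y-linked-only barcodes was 2.77 for LysoPS-OVA and 2.91 for free OVA; among Xist-only barcodes it was 0.635 and 0.941, below 1, and LysoPS-OVA over free OVA was 0.675. The interval of the ratio over citrate buffer also included 1 with at least 4 genes (LysoPS-OVA 1.65, 0.970 to 2.80; free OVA 1.31, 0.740 to 2.30) and at 1000 UMIs (1.68, 0.948 to 2.96; 1.38, 0.759 to 2.52). For free OVA it did so at 5% mitochondrial UMIs (1.41, 0.913 to 2.18) and without called doublets (1.48, 0.983 to 2.24), where LysoPS-OVA had 1.59 (1.07 to 2.37). These subsets were thinned anew, so draw and filter cannot be told apart.

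Genes past 2-fold in LysoPS-OVA against citrate buffer numbered 94 higher and 9 lower with at least 4 gate genes, 46 higher at 5% mitochondrial UMIs, and 111 and 103 with no filter. Against free OVA, LysoPS-OVA had 36 and 13 with at least 4 genes, 5 higher without doublets, and 33 and 16 with no filter. Free OVA against citrate buffer gave 65 and 17 with at least 4 genes, 32 higher at a pseudocount of 1 CPM, 16 lower without partial barcodes, and 76 and 108 with no filter. Without doublets Slc8a1 and Dpp10 were at -0.064 and -0.19 (log2, LysoPS-OVA against citrate buffer). The settings without partial barcodes in the depth-matched set, without top barcodes and by sex transcripts were chosen after the data were seen; where a value moved with no other value shown, the cause was not tested.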

Other observations

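Of 15 tested apoptosis genes, 3 were higher in responding barcodes: the death ligand Tnfsf10 (TRAIL) by 1.88 ± 0.34, Daxx by 1.55 ± 0.13 and the inflammatory caspase Casp4 by 1.01 ± 0.12 on the log2 scale (edgeR). Daxx was at 68.5, 72.0 and 76.2 CPM in responding barcodes of LysoPS-OVA, free OVA and citrate buffer, against 26.2, 24.2 and 23.9 CPM in negative ones. Plac8 was at 411, 385 and 417 CPM in responding against 186, 203 and 249 CPM in negative barcodes, the 1 gene called of 9 tested on the marginal zone and B1 list.

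The gate genes were not spread alike over B and T barcodes. Oasl1 was at 33.2, 28.8 and 16.7 CPM in all B barcodes of LysoPS-OVA, free OVA and citrate buffer, against 4.6, 6.19 and 4.13 CPM in T barcodes. Isg15 was at 23.2, 25.2 and 26.7 CPM in B barcodes against 47.9, 59.1 and 60.7 CPM in T barcodes.

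Lambda light chain led in 4.11% of responding barcodes in LysoPS-OVA (95% interval 1.90 to 7.66), 4.52% in free OVA (2.19 to 8.16) and 16.3% in citrate buffer (9.63 to 25.2), against 8.03%, 10.6% and 16.9% of negative barcodes. A leading heavy chain V gene needed more than a single UMI and most of the V gene UMIs of a barcode. It was found in 10, 30 and 6 responding barcodes of LysoPS-OVA, free OVA and citrate buffer, with 6, 24 and 6 distinct genes. Ighv5-17 accounted for 4 of the 10 in LysoPS-OVA. Negative LysoPS-OVA barcodes had 113 with 41 distinct genes, and the most frequent, Ighv3-2, led in 13. Matched for depth, they had 30 with 18 distinct genes, and Ighv1-64 led in 4.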
